A study of Drosophila melanogaster with 4 samples.

Results

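Gdh encodes glutamate dehydrogenase, and its transcripts were followed here as a single gene. The members are every transcript of Gdh in the authors' table, matched by FlyBase transcript identifier: FBtr0089498 (Gdh-RA), FBtr0089497 (Gdh-RF) and FBtr0335205 (Gdh-RD). These are 3 of the 1761 transcripts in the table, and 3 of the 4 Gdh transcripts in the annotation. Gdh-RB (FBtr0089496) was not listed and was not analysed here. Gdh was chosen because its transcripts differ between the genotypes in these same libraries, so its levels, shares and sum are given as a description with no test.

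The tissue was the dissected intestine of female Drosophila melanogaster, 3 to 5 days old, although the labels' source field names the whole animal. There were 2 groups, flies carrying the kdm5 alleles k6801 and 10424 (2 samples, called the mutant) and the strain w1118 (2 samples), with 30 intestines pooled in each sample. kdm5, also known as lid, encodes a chromatin enzyme that takes methyl groups off histone H3 at lysine 4, and w1118 is a white-eyed stock carrying a mutated w gene. The labels say neither whether the samples of a genotype came from separate crosses nor whether the mutant shares the w1118 background, so the spread between samples may be technical. What the kdm5 alleles do and what else differs between the strains, at Gdh included, cannot be told apart.

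Glutamate dehydrogenase works in the mitochondrial matrix. It converts glutamate to 2-oxoglutarate and ammonia, and can run in reverse, so it joins amino acid breakdown to the TCA cycle (the tricarboxylic acid cycle, which burns carbon in mitochondria). In mammals, glutamate and glutamine are main fuels of the intestinal lining. Splicing joins the exons of a gene into a transcript, and an exon that some transcripts keep and others skip is called a cassette exon.

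The annotated transcripts of Gdh differ in a first exon and in a small cassette exon. Gdh lies on chromosome arm 3R, 23935958 to 23943101, on the minus strand (BDGP6.54, in release 115 of Ensembl, possibly not what the authors used). Gdh-RA and Gdh-RF start at the same first exon and end at the same base. Gdh-RA holds 6 exons and 2195 bases, and Gdh-RF holds 5 exons and 2156 bases. The whole difference between them is an exon of 39 bases, at 23936981 to 23937019, which is exon 5 of Gdh-RA and lies inside the coding sequence. It is flanked by introns of 403 and 335 bases, where Gdh-RF has a single intron of 777 bases.

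The small exon is a multiple of 3 bases long, so it adds 13 residues and keeps the reading frame. It follows 459 full codons of Gdh-RA, whose annotated protein is 562 residues long, while that of Gdh-RF is 549 residues long. Gdh-RB and Gdh-RD share another first exon, 4331 bases further downstream, with a start codon in the exon that all 4 transcripts share next. That start is in frame with Gdh-RA and leaves out the first 158 residues, which gives 404 residues for Gdh-RB (with the small exon) and 391 for Gdh-RD (without it). Of the listed transcripts, Gdh-RA has the small exon and the other 2 lack it.

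**Figure D1:**
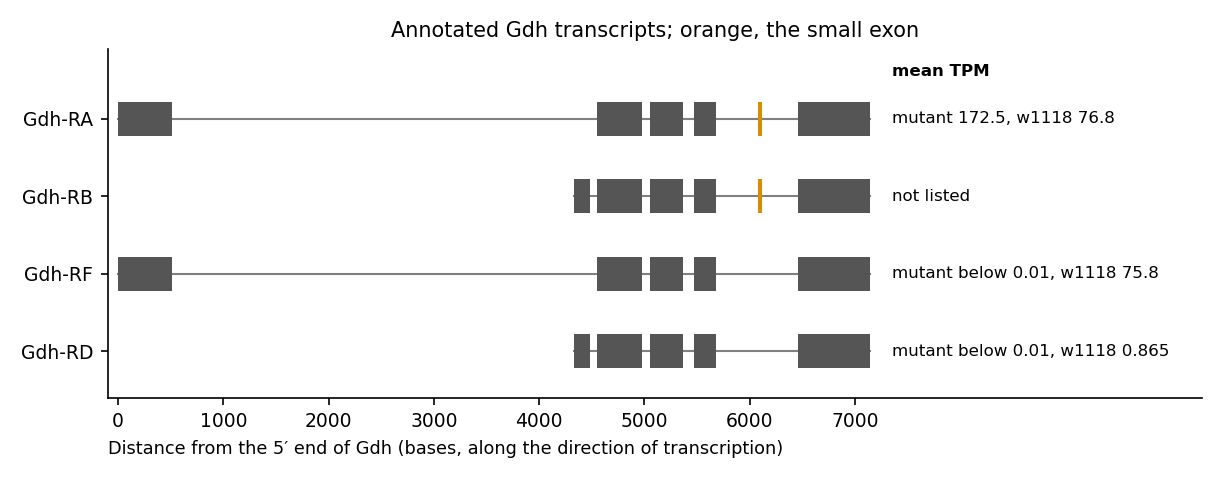
Exons (boxes) of the 4 annotated Gdh transcripts against distance from the 5′ end of the gene in bases, with the mean TPM of each group (n = 2) at the right. Gdh-RA and Gdh-RF differ by the 39-base exon drawn in orange and by nothing else, and Gdh-RF and Gdh-RD, which lack it, are below 0.01 TPM in the mutant.

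The isoform with the small exon was higher in the mutant intestine, and the isoforms without it were near 0 there. Levels are in TPM, each transcript's part of 1000000 transcript molecules after correction for transcript length. Gdh-RA had 152 and 193 TPM in the mutant libraries, against 92.5 and 61.1 TPM in the w1118 libraries. Both mutant libraries lay above both w1118 libraries. The means were 172 ± 28.8 TPM in mutant intestines and 76.8 ± 22.3 TPM in w1118 intestines (SD, n = 2 each), a 2.25-fold difference of 95.7 TPM.

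Gdh-RF, the transcript that lacks only the small exon, had 1.16e-05 and 0.00203 TPM in the mutant libraries, against 82.1 and 69.6 TPM in the w1118 libraries. It was near 0 in each mutant library and abundant in each w1118 library. The means were 0.00102 ± 0.00142 TPM in mutant intestines and 75.8 ± 8.86 TPM in w1118 intestines (SD, n = 2 each), a difference of -75.8 TPM. No fold is given, because values so close to 0 give no usable ratio.

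Gdh-RD, which starts at the downstream first exon and also lacks the small exon, was scarce in w1118 as well. It had 6.42e-10 and 6.04e-07 TPM in the mutant libraries, against 1.21 and 0.521 TPM in the w1118 libraries. Both mutant libraries lay far below both w1118 libraries, and the w1118 mean was 0.865 ± 0.485 TPM (SD, n = 2), so Gdh-RD adds little to any sum over Gdh. Across the table, 75 of 7044 values lay below 0.01 TPM.

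In w1118 the isoforms with and without the small exon were about equally abundant. Gdh-RA was the higher in w1118 library 1 and Gdh-RF in w1118 library 2, so their order was not settled there, while Gdh-RD lay far below both. In the mutant, Gdh-RA ranked 118 of the 1761 listed transcripts by mean TPM and Gdh-RF ranked 1755. By w1118 mean TPM they held neighbouring ranks, 176 and 178.

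**Figure D2:**
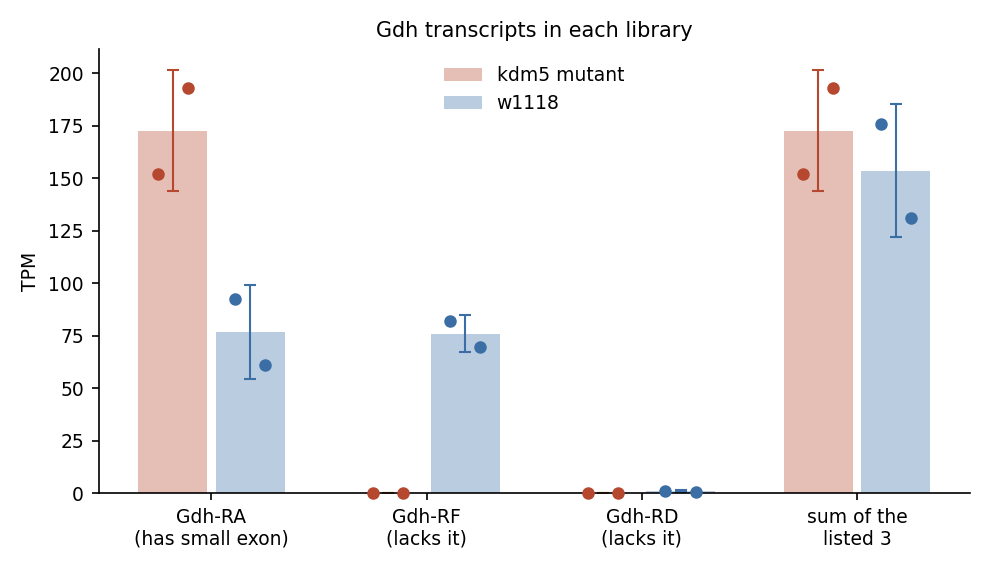
TPM of each listed Gdh transcript and of their sum, with kdm5 mutant (red, left) and w1118 (blue, right); points are libraries, bars are means and lines are SD (n = 2 each). Gdh-RA is higher in the mutant libraries, Gdh-RF is near 0 in them, and the sums of the genotypes overlap.

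The summed level of the listed Gdh transcripts overlapped between the genotypes. The sum was 152 and 193 TPM in the mutant libraries, against 176 and 131 TPM in the w1118 libraries. Of the w1118 libraries, 1 lay between the mutant libraries and the other below them. The means were 172 ± 28.8 TPM in mutant intestines and 154 ± 31.6 TPM in w1118 intestines (SD, n = 2 each), a ratio of 1.12 that lies within the spread of the libraries. Leaving out 1 library at a time gave ratios of 0.981 to 1.31, on either side of 1.

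The balance between the isoforms can be read from the same values. The transcript with the small exon was 95.7 TPM higher in the mutant on average, and the transcripts without it together differed by -76.7 TPM. The sum covers the listed transcripts only. Gdh-RB, which has the small exon, is not in it, and the total of the gene is not known. In bulk tissue, fewer cells with a transcript and less of it per cell cannot be told apart.

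As a share of the listed Gdh sum, the transcript with the small exon made up almost all of it in the mutant and about an equal part with the others in w1118. Gdh-RA averaged 99.999% of the sum in the mutant libraries, against 52.6% and 46.6% in the w1118 libraries. Gdh-RF held 7.62e-06% and 0.00105% in the mutant libraries, against 46.7% and 53.0% in the w1118 libraries, and Gdh-RD held 0.687% and 0.397% in w1118. The mean share of Gdh-RA differed by 50.4 percentage points between the genotypes, and the SD of the w1118 libraries was 4.29 points. With Gdh-RD left out, so that only transcripts from the upstream first exon count, the difference was 50.1 points.

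**Figure D3:**
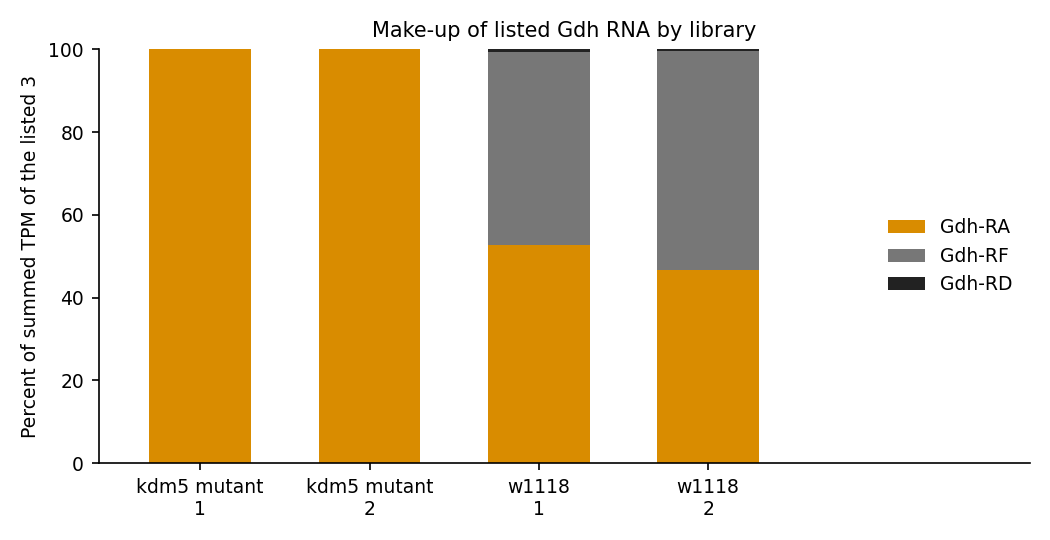
Percent of the summed TPM of the listed Gdh transcripts held by each of them, by library, with the mutant libraries at the left. Gdh-RA fills the mutant bars, and Gdh-RA and Gdh-RF hold similar parts of the w1118 bars.

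In the authors' deposited table Gdh-RF carried the smallest p of all 1761 transcripts, 2.42e-06. In the authors' deposited table Gdh-RD had p = 0.00917 and Gdh-RA p = 0.0145. The groups did not overlap for any of the 3 Gdh transcripts, but nothing can be read from this, since 94.8% of all listed transcripts were likewise without overlap (58.8% with the mutant above and 35.9% with it below) and Gdh was chosen for it. The table was selected on this comparison.

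Gdh-RA and Gdh-RF share 2156 bases. The division of reads between them therefore rests on reads that touch the 39-base exon, 1.78% of Gdh-RA, or the junctions around it, and TPM does not record how many such reads there were. The annotation places CG5854 on the opposite strand with its end 7 bases inside the last exon of Gdh. Whether the counting separated the strands is not known here.

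Few transcripts in the table were as close to 0 in the mutant while well present in w1118. Below 0.01 TPM in both mutant libraries and at 1 TPM or more in both w1118 libraries there were 3 transcripts, Gdh-RF, a CG32795 transcript and a CG32813 transcript. CG32795 averaged 0.000112 TPM in mutant intestines and 10.2 TPM in w1118 intestines, and CG32813 averaged 2.8e-09 TPM in mutant intestines and 2.57 TPM in w1118 intestines, so Gdh-RF was the most abundant of them in w1118. In the other direction, 4 transcripts were at 1 TPM or more in both mutant libraries and below 0.01 TPM in both w1118 libraries.

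The mutated gene and the region around Gdh were looked at beside these values. Every test given from here on is limma's on log2(TPM + 1) over all listed transcripts, with p adjusted over 35694 tests, the number of annotated transcripts, and rose and fell are used only where that p was below 0.05. The listed Kdm5 transcript, Kdm5-RE, was scarce, with 0.0768 and 0.0361 TPM in the mutant libraries, against 1.43 and 0.639 TPM in the w1118 libraries (limma adjusted p = 0.11). Levels of unlisted Kdm5 transcripts, and so the total of the gene, are not known. The w transcript had 8.82 and 13.4 TPM in the mutant libraries, against 0 and 0.013 TPM in the w1118 libraries (limma adjusted p = 5.1e-06). This gene is mutated in w1118, and many fly transgenes carry a copy of it as an eye colour marker. Of 28 other annotated genes within 50 kb of Gdh, 2 had a listed transcript. Rab7, a small GTPase of late endosomes, stood at 29.9 and 43.4 TPM in mutant intestines and 65.6 and 54.1 TPM in w1118 intestines. Epp stood at 2.23 and 4.14 TPM in mutant intestines and 1.27 and 0.881 TPM in w1118 intestines. Neither passed the test across the table (limma adjusted p = 0.63 for Rab7 and 0.37 for Epp).

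Markers of gut cells and of other cell types were checked in the listed transcripts. Of 8 enterocyte marker genes 5 were listed, with a summed level of 20938 to 26363 TPM in the mutant and 62780 to 66421 TPM in w1118. Most of that sum was LysD and Jon65Aiii, which were abundant in every library. Npc2c was scarce, averaging 1.49 TPM in mutant intestines and 5.88 TPM in w1118 intestines. Of the 5 enterocyte transcripts 4 fell, where 8.69% of all listed transcripts did. The other, nub, had 1.16 and 2.14 TPM in mutant intestines and 0.502 and 0.551 TPM in w1118 intestines (limma adjusted p = 0.51). Of 8 enteroendocrine markers 4 were listed (24 to 32.3 TPM in the mutant, 50.7 to 58.5 TPM in w1118), and of 10 visceral muscle markers 2 (96.8 to 136 TPM in the mutant, 152 to 233 TPM in w1118). Of 8 Malpighian tubule markers 4 were listed (231 to 251 TPM in the mutant, 203 to 229 TPM in w1118), of 11 fat body markers 2 (29.8 to 38.2 TPM in the mutant, 9.42 to 11.5 TPM in w1118) and of 8 haemocyte markers 2 (1.2 to 1.32 TPM in the mutant, 0.557 to 0.957 TPM in w1118). All 7 enteroendocrine transcripts were lower, as were 725 of all 1761 listed transcripts. Members of the visceral muscle, Malpighian tubule, fat body and haemocyte lists went opposite ways. Of all listed transcripts 22% rose. Of 5 Malpighian tubule transcripts 2 rose, Oatp58Db (5.41-fold, limma adjusted p = 0.0011) and ZnT35C (2.32-fold, limma adjusted p = 0.024), 1 more was higher, and both salt transcripts were lower (0.651 and 0.591 of the w1118 mean) and did not pass. In the fat body list Tsf1 rose 3.52-fold (limma adjusted p = 0.0045). The only listed FASN1 transcript, FASN1-RC, averaged 0.00192 TPM in mutant intestines and 0.801 TPM in w1118 intestines and did not pass. In the haemocyte list the only listed srp transcript, srp-RG, rose (0.979 TPM on average in mutant intestines and 2.36e-10 TPM in w1118 intestines, limma adjusted p = 0.039). Hml averaged 0.281 TPM in mutant intestines and 0.757 TPM in w1118 intestines and did not pass. None of the 7 enteroendocrine, 2 visceral muscle or 1 stem cell transcripts passed (limma, 4, 2 and 1 at unadjusted p below 0.05). Among stem cell and enteroblast markers 1 of 4 matched was listed (0.48 to 0.873 TPM in the mutant, 1.24 to 2.02 TPM in w1118), and of 7 matched ovary markers 0. All marker values are of listed transcripts only, so they may be part of the gene's level. An unlisted marker or transcript has no known level. The part of these differences in the Gdh values was not tested.

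Listed transcripts of other genes that make, use or carry glutamate lay in both directions in the mutant, as did listed transcripts at large. A list of 29 matched genes of glutamate, glutamine, proline and GABA metabolism had 20 listed transcripts of 12 genes besides Gdh, 12 higher and 8 lower. In the limma test 7 of the 20 passed (35%), against 30.7% of all listed transcripts. Of these 5 rose (background 22% of listed transcripts) and 2 fell (background 8.69%). With each library scaled to its TPM outside the list, 4 rose and 3 fell, where 18.7% and 10.5% of all listed transcripts did. Adjusted over the listed transcripts only, 12 passed as higher and 5 as lower, against backgrounds of 53.7% and 23.4% (77.1% together). The median log2 change was 0.95 in the list and 0.86 over all listed transcripts. Each run with 1 library left out called fewer transcripts, in this list and over all listed transcripts alike.

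The 5 transcripts that rose belong to Got2, Gs1, Ssadh and Gclm, and the 2 that fell to Gs2 and gb. For some genes only 1 transcript was listed, of 2 annotated for Got2, Gclm and P5CS, 3 for gb and 7 for CG1640. Values under these gene names are of that transcript, and the totals of the genes are not known. Other genes were listed in part, with 2 of 6 annotated transcripts for Gs2, 2 of 5 for Ssadh, 2 of 4 for Gclc and 3 of 6 for aralar1. Their totals are not known either. Got2, the mitochondrial aspartate aminotransferase, which passes amino groups between aspartate and glutamate, stood at 278 and 258 TPM in mutant intestines and 94.9 and 94.6 TPM in w1118 intestines. Each mutant library was well above the w1118 pair, which lay close together, and 58.8% of all listed transcripts had both mutant libraries above. Got2 rose by 1.49 ± 0.24 on the log2 scale (SE, n = 2 per group, limma adjusted p = 0.0011), or 2.83-fold.

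Gs1 encodes the mitochondrial glutamine synthetase, which adds ammonia to glutamate. All 3 of its annotated transcripts were listed and higher, with a sum of 84.1 and 100.4 TPM in mutant intestines and 32.1 and 27 TPM in w1118 intestines. Of these, Gs1-RD rose, at 59 and 70.9 TPM in mutant intestines and 19.5 and 17 TPM in w1118 intestines (log2 change 1.77 ± 0.28, limma adjusted p = 0.0011). Gs1-RB and Gs1-RC did not pass (limma adjusted p = 0.094 and 0.47).

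The listed transcripts of Gs2, the cytoplasmic glutamine synthetase, lay in the other direction. Gs2-RB stood at 1.6 and 2.92 TPM in mutant intestines and 19 and 9.44 TPM in w1118 intestines, and fell by 2.18 ± 0.41 on the log2 scale (limma adjusted p = 0.0055). The more abundant Gs2-RC stood at 59.7 and 67.2 TPM in mutant intestines and 142 and 80.5 TPM in w1118 intestines, and did not pass (limma adjusted p = 0.53).

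Ssadh encodes succinate semialdehyde dehydrogenase, the last enzyme of the route that breaks down GABA, which is made from glutamate. Ssadh-RC stood at 58.8 and 61.6 TPM in mutant intestines and 14.4 and 24.7 TPM in w1118 intestines, and rose 3.08-fold (limma adjusted p = 0.005). Ssadh-RB stood at 30.1 and 19.7 TPM in mutant intestines and 9 and 5.92 TPM in w1118 intestines, and rose 3.34-fold (limma adjusted p = 0.02). Both transcripts were above w1118 in each mutant library, as were 58.8% of all listed transcripts.

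Glutamate-cysteine ligase, which uses glutamate to start glutathione synthesis, has a modifier subunit (Gclm) and a catalytic subunit (Gclc). Gclm stood at 282 and 341 TPM in mutant intestines and 176 and 135 TPM in w1118 intestines, and rose 2-fold (limma adjusted p = 0.048, or 0.14 with each library scaled to its TPM outside the list and 0.055 with only transcripts averaging at least 1 TPM). Gclc had transcripts in both directions, and neither passed. Gclc-RD stood at 14.5 and 20.5 TPM in mutant intestines and 49.2 and 35.8 TPM in w1118 intestines (limma adjusted p = 0.052, or 0.023 with that scaling and 0.044 with a pseudocount of 0.1), while the scarcer Gclc-RC stood at 2.89 and 2.95 TPM in mutant intestines and 1.16 and 0.939 TPM in w1118 intestines.

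Among carriers of glutamate, gb, a subunit of a plasma membrane transporter related to the cystine-glutamate exchanger, stood at 1.21 and 0.489 TPM in mutant intestines and 9.11 and 4.27 TPM in w1118 intestines. It fell by 2.01 ± 0.39 on the log2 scale (limma adjusted p = 0.0067). The mitochondrial glutamate carrier GC1 had 2 lower transcripts, summing to 22.5 and 30.4 TPM in mutant intestines and 64.1 and 43.7 TPM in w1118 intestines, and neither passed (limma adjusted p = 0.24 and 1).

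The aspartate-glutamate carrier aralar1 had 3 listed transcripts and none passed. Of these, 2 had the same TPM in every library, 11.3 and 17.7 TPM in mutant intestines and 7.88 and 5.75 TPM in w1118 intestines, so the table does not separate them. The third, aralar1-RB, stood at 4.73 and 5.06 TPM in mutant intestines and 9.94 and 7.63 TPM in w1118 intestines. The remaining listed transcripts, of Oat (ornithine aminotransferase), CG1640 (alanine aminotransferase) and P5CS (which starts proline synthesis from glutamate), did not pass either (limma adjusted p = 0.15, 0.33 and 1).

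The TCA cycle takes up the 2-oxoglutarate that glutamate dehydrogenase makes. Of 30 genes in the list 9 had a listed transcript, 17 transcripts in all, 6 higher and 11 lower. Over all 1761 listed transcripts 1036 were higher and 725 lower. The list is wider than the cycle itself and also holds Men, Men-b, Pepck2 and the NADP-dependent Idh. By the same limma test 4 rose (23.5% of the 17, background 22%) and 0 fell (background 8.69%). Of those that rose, Men-RC and Idh-RK belong to these added genes, so the counts are not of the cycle alone. At unadjusted p below 0.05 there were 6 higher transcripts of the 17 (background 56.1%) and 6 lower (background 25.8%). With each library scaled to its TPM outside the list, 3 rose and 0 fell, where 18.7% and 10.5% of all listed transcripts did. The median log2 change was -0.65 in the list and 0.86 over all listed transcripts. Leaving out any 1 library gave fewer calls, in this list and over all listed transcripts alike.

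Ogdh encodes a subunit of 2-oxoglutarate dehydrogenase, the enzyme that uses 2-oxoglutarate next, and its listed transcripts differed in direction. Ogdh-RF stood at 9.88 and 5.66 TPM in mutant intestines and 0.0382 and 0.734 TPM in w1118 intestines, and rose by 2.67 ± 0.38 on the log2 scale (limma adjusted p = 0.00029). The more abundant Ogdh-RG stood at 15.7 and 28.1 TPM in mutant intestines and 52.9 and 32.9 TPM in w1118 intestines (limma adjusted p = 0.36). The sum of the 3 listed of 9 annotated transcripts was 34.5 and 46.1 TPM in mutant intestines and 75 and 48.6 TPM in w1118 intestines.

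Men, the malic enzyme, which makes pyruvate and NADPH from malate, also had a higher and a lower transcript. Men-RC stood at 95.2 and 115.6 TPM in mutant intestines and 46.1 and 53.6 TPM in w1118 intestines, and rose 2.11-fold (limma adjusted p = 0.045, or 0.12 with each library scaled to its TPM outside the list and 0.0515 with only transcripts averaging at least 1 TPM). Men-RA stood at 4.1 and 6.57 TPM in mutant intestines and 17 and 11.5 TPM in w1118 intestines (limma adjusted p = 0.16).

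A fumarase transcript, Fum1-RB, stood at 26 and 27.2 TPM in mutant intestines and 5.63 and 8.95 TPM in w1118 intestines, and rose 3.65-fold (limma adjusted p = 0.0066). Idh-RK, of the NADP-dependent isocitrate dehydrogenase, stood at 4.29 and 3.12 TPM in mutant intestines and 0.16 and 0.662 TPM in w1118 intestines, and rose by 1.75 ± 0.32 on the log2 scale (limma adjusted p = 0.0045). The citrate synthase kdn, both listed subunits of the NAD-dependent isocitrate dehydrogenase (Idh3a and Idh3g) and Pepck2, which makes phosphoenolpyruvate, had lower transcripts only and none passed. For kdn the levels were 59.4 and 78.4 TPM in mutant intestines and 148 and 86.3 TPM in w1118 intestines (limma adjusted p = 0.63). These are of 1 listed transcript of the 2 annotated for kdn.

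**Figure D4:**
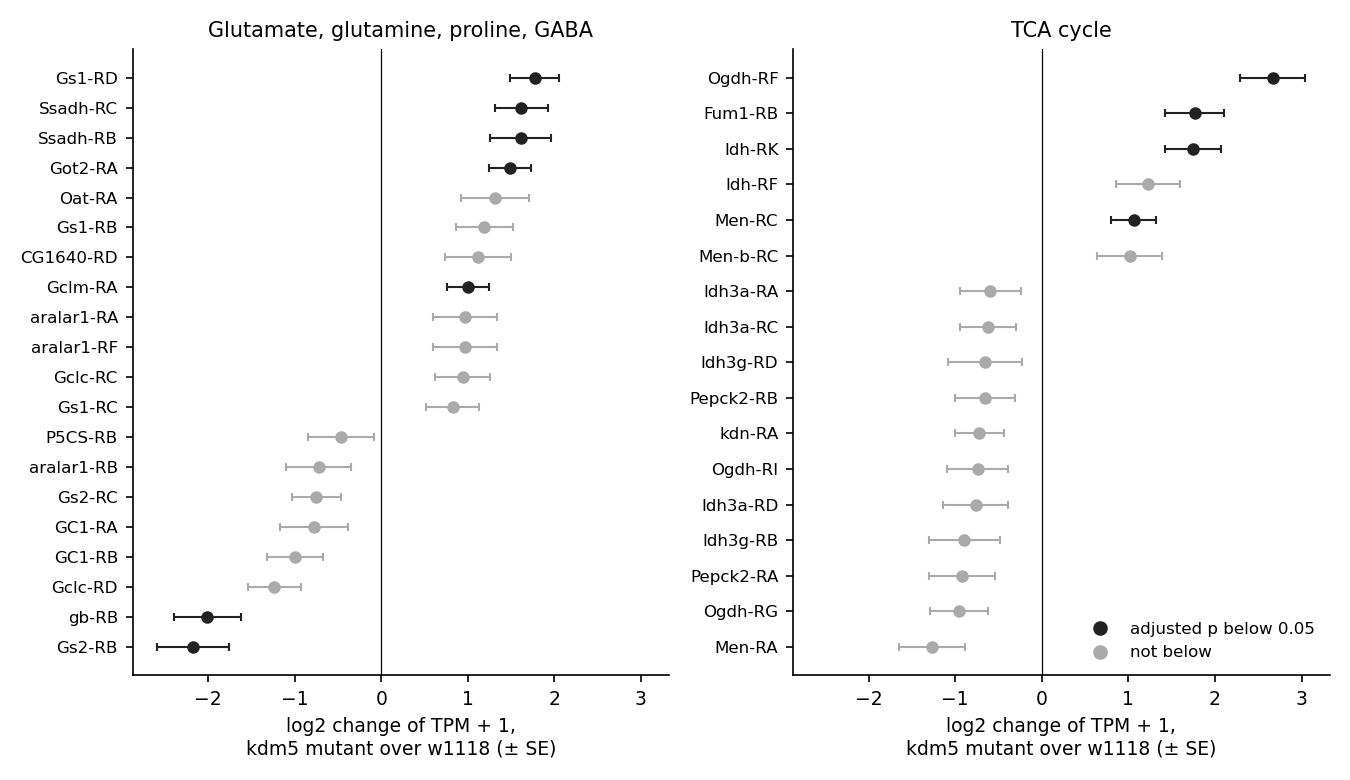
Log2 change of TPM + 1 (kdm5 mutant over w1118, points, with SE, n = 2 each) of each listed transcript besides Gdh in the glutamate list (left) and the TCA cycle list (right), dark where limma's adjusted p was below 0.05. Gs1-RD, both Ssadh transcripts and Got2 lie highest in the glutamate list, Gs2-RB and gb-RB lowest, and Ogdh-RF lies highest in the TCA cycle list.

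Gdh was 1 of 20 genes with listed transcripts in both directions, out of 167 genes with at least 2 listed transcripts. Direction here is the sign of the difference in mean TPM, whether or not a transcript passed the limma test. For each, the change between genotypes in the share of 1 transcript in the gene's listed sum was taken as the measure of likeness to Gdh, over the 4 libraries. That change was 50.4 points in Gdh and ran from 10.4 to 90.8 points in the other 19 genes, with a median of 22.1 points. Only Npc1a and l(1)G0289 had a larger one, and Npc1a, a sterol transport gene, had a summed mean under 5 TPM. These changes are descriptions, since the genes were found by their values in the same comparison. The limma p-values given for these genes share that limit.

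The 5 genes most like Gdh by that measure, at a summed mean of at least 5 TPM, were l(1)G0289, NTPase, CG14777, ND-B12 and CG17574. Listed were 2 of 4 annotated transcripts of l(1)G0289, 2 of 5 each of NTPase, CG14777 and ND-B12, and 6 of 13 of CG17574. Shares and sums are of these only, and the totals of the genes are not known. In l(1)G0289 the share of l(1)G0289-RC was 15.1% and 24.6% in the mutant, against 71.8% and 86.2% in w1118. In NTPase the share of NTPase-RF was 61.1% and 74.3% in the mutant, against 23.8% and 21.8% in w1118. In both genes the listed sums overlapped between the genotypes. Of their transcripts, l(1)G0289-RA rose (limma adjusted p = 0.009) and l(1)G0289-RC did not pass (limma adjusted p = 0.54). Neither NTPase transcript passed, and the groups overlapped for NTPase-RC.

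CG14777 and ND-B12, a subunit of respiratory complex I, were close to Gdh in having nearly level listed sums. CG14777-RB held 30.4% and 32% of its gene's listed sum in the mutant, against 68.2% and 69.7% in w1118, and the sums were 48.3 and 48.1 TPM in the mutant and 49.1 and 42.7 TPM in w1118. ND-B12-RD held 49.9% and 43.6% in the mutant, against 11.3% and 11.9% in w1118, with sums of 148 and 129.6 TPM in the mutant and 148 and 119.9 TPM in w1118. In CG17574, CG17574-RH held 35.8% and 39.3% in the mutant, against 7.37% and 9.22% in w1118. The listed sum of CG17574 was lower in the mutant, at 204 and 225 TPM, against 278 and 252 TPM in w1118. Neither CG14777 transcript passed (limma adjusted p = 0.069 and 0.15). ND-B12-RD rose (limma adjusted p = 0.00038), and ND-B12-RB did not pass (limma adjusted p = 0.51). CG17574-RH rose (limma adjusted p = 0.00055), CG17574-RF fell (limma adjusted p = 0.029), and the other listed CG17574 transcripts did not pass.

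The structure of the difference was compared in the same genes. Pairing each higher with each lower transcript of a gene gave 28 pairs. Only the pair Gdh-RA and Gdh-RF differed by the presence of a single internal exon and nothing else. Among the pairs, 6 shared both ends, and of the 5 besides Gdh, 1 exchanged an exon for another and 4 differed in the length of overlapping exons.

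**Figure D5:**
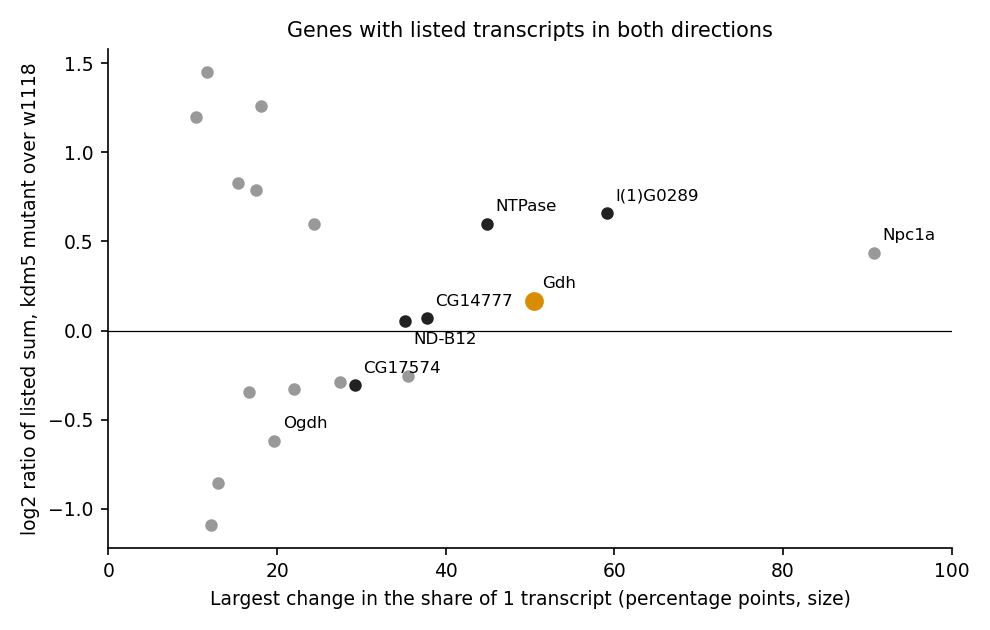
The 20 genes with listed transcripts in both directions, by the size of the largest change in the share of 1 transcript (x axis, percentage points) and the log2 ratio of the listed sum, kdm5 mutant over w1118 (y axis). Gdh (orange) lies at 50.4 points with a ratio of sums of 1.12, and the 5 genes named as most like it are dark.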

How the data were processed

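The deposited table holds TPM for each of 4 libraries beside a p-value per transcript, per the file headers. The authors' p-values were all under 0.05, so the table is a selected list, and whether they were adjusted is not stated. Cufflinks and DESeq were used, per the submitters' processing notes, in roles those do not state. Which aligner, genome build and gene models were used is not stated there. TPM keeps no depth, so depth is unknown and no counting interval was given. The listed transcripts held 15.3% to 15.6% of each mutant library and 23.5% to 23.9% of each w1118 library, with the total taken as 1000000 TPM.

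Transcripts were looked up in release 115 of Ensembl's gene models (1741 of 1761, 1526 genes). The design allowed for counts. As the file held TPM, limma 3.58.1 (trend, R 4.3.3) was run on log2(TPM + 1) over all listed transcripts, mutant against w1118, without a replicate block. That scale understates changes of low transcripts. Benjamini-Hochberg adjustment counted all 35694 annotated transcripts outside transposable elements as tests. The variance that limma shares between transcripts was learned from the selected list alone. Its p-values may therefore be too small, and counting more tests does not mend that. Only the limma step was checked on simulated data, with independent noise and no selection of transcripts. That check does not cover a selected list. Folds are ratios of mean TPM, given where both means were at least 0.5 TPM and no single library moved them by over 1.5 times.

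Members and lists were chosen with earlier results of these data known. Named were all Gdh transcripts, listed members of the glutamate and TCA cycle lists, the 5 genes most like Gdh, neighbours within 50 kb, Kdm5 and w. Gdh itself was left out of list counts, and 1 glutamate, 1 stem cell and 1 ovary symbol matched no gene. No sequences are shown, since none were used here.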

Additional observations from a re-analysis of the deposited data

How the results depend on the processing

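The Gdh values kept their direction under each alternative run, apart from the listed sum. The difference in the sum, 19 TPM, ran from -3.39 to 41.3 TPM with 1 library left out and was 2.2 TPM with each library scaled to its TPM outside the list. That scaling moved the median log2 change by -0.13 and turned the direction of 0 members of the glutamate and TCA cycle lists. With p adjusted over the listed transcripts only, limma called 1358 transcripts in all, 17 in the glutamate list and 10 in the TCA cycle list, against 540, 7 and 4; this adjustment does not limit false calls in a selected list. Leaving out 1 library gave 0 to 366 calls in all (limma, 282 without w1118 library 1 and 0 without mutant library 1 or 2, with 1293 and 1217 at unadjusted p below 0.05), 0 to 5 in the glutamate list and 0 to 2 in the TCA cycle list; the lone sample of a group is then assumed to vary like the others, and the cause was not tested. With a pseudocount of 0.1, limma called 576 transcripts in all, 8 in the glutamate list (Gclc-RD gained) and 4 in the TCA cycle list. With only transcripts averaging at least 1 TPM it called 512, 6 (Gclm lost) and 3 (Men-RC lost). With the scaling it called 515, 7 (Gclm lost, Gclc-RD gained) and 3 (Men-RC lost). The labels do not pair the samples. With the replicate block 449 transcripts were called, 7 in the glutamate list and 4 in the TCA cycle list. The deviations of same-numbered libraries had a weak negative correlation (r = -0.19 across 1673 transcripts, which are not independent). The crossed pairing, a choice made after seeing the data, gave 1167 calls.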

Other observations

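Beside Gdh, the pairs of opposite transcripts that shared both ends were in CG14777, Gli, Npc1a, Ogdh and Sec24AB, named here after their values were seen. In Ogdh the higher Ogdh-RF and the lower Ogdh-RG exchange an exon of 130 bases for another of 103 bases. In Npc1a the transcripts differ in the length of an overlapping exon, 181 bases in Npc1a-RE and 193 bases in Npc1a-RA. Npc1a-RE had 3.02 and 6.61 TPM in mutant intestines and 0.373 and 0.173 TPM in w1118 intestines, and Npc1a-RA had 0.118 and 0.000843 TPM in mutant intestines and 3.78 and 2.88 TPM in w1118 intestines. Of the listed sums of the 19 genes besides Gdh, 7 overlapped between the genotypes, 6 were higher in both mutant libraries and 6 lower.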
